A study of Homo sapiens with 192 samples.

Results

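The carcinoembryonic antigen-related cell adhesion molecules (CEACAMs) described here were 5 genes, CEACAM1, CEACAM5, CEACAM6, CEACAM7 and CEACAM19, found by their Ensembl identifiers among 58243 genes listed. All 5 were among the 19387 genes tested, although CEACAM5, CEACAM6 and CEACAM7 passed the filter on low counts without reads above the floor in HCT116. RNA sequencing had been done on 4 established human colorectal cancer cell lines, each grown in 2D and in 3D culture, with 3 libraries for each of the 8 groups. HT29 and LS513 are microsatellite stable lines, and HCT116 and LS174T are microsatellite instable lines. HCT116 was kept in McCoy medium and the other lines in DMEM, so line and medium cannot be told apart for HCT116. The labels name no treatment or genetic change in any group, and how the 3D cultures used for RNA were grown is not given in the sources used here. Each line is a single cancer, so a difference between lines is a difference between these 4 lines and not between classes of tumour.

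CEACAMs are immunoglobulin-like cell surface glycoproteins that bind to themselves and to one another across cell contacts. CEACAM1 spans the membrane, and its long isoform carries tyrosine motifs that, once phosphorylated, recruit the phosphatases SHP-1 and SHP-2. CEACAM5 (the clinical tumour marker CEA), CEACAM6 and CEACAM7 lack a cytoplasmic domain and are held in the membrane by a glycosylphosphatidylinositol (GPI) anchor. In normal colon these proteins sit mainly at the apical surface of mature colonocytes. CEACAM19 is a more distant transmembrane member about which less is known.

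All 5 genes lie on chromosome 19 (GRCh38, GENCODE 29). CEACAM7 (ENSG00000007306, chr19:41673307-41706976, minus strand) lies 1609 bases from CEACAM5 (ENSG00000105388, chr19:41708585-41729798, plus strand). CEACAM6 (ENSG00000086548, chr19:41750977-41772208, plus strand) follows 21179 bases further on. CEACAM1 (ENSG00000079385, chr19:42507304-42561234, minus strand) and CEACAM19 (ENSG00000186567, chr19:44662278-44684359, plus strand) lie apart from these 3 genes.

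The promoters of CEACAM1, CEACAM5, CEACAM6 and CEACAM7 are printed because these 4 related promoters belong to genes that differed in their levels between lines and growth conditions. Each stretch runs 5′ to 3′ on the gene's own strand from 140 to 21 bases before the RefSeq start site (GRCh38.p14). The stretches are chr19:42528502-42528621, minus strand, for CEACAM1 and chr19:41708486-41708605, plus strand, for CEACAM5. Those of CEACAM6 and CEACAM7 are chr19:41755390-41755509, plus strand, and chr19:41688291-41688410, minus strand. The stretches of CEACAM1, CEACAM6 and CEACAM7 lie inside the GENCODE spans given above. Distances between those spans are therefore not distances between the RefSeq start sites. Capitals mark GAAA followed after any 2 bases by GAAA (a form of the interferon regulatory factor element), CACGTG (the E-box bound by USF and MYC proteins) and GGGCGG (the GC box bound by Sp1, written CCGCCC where it is on the other strand).
CEACAM1: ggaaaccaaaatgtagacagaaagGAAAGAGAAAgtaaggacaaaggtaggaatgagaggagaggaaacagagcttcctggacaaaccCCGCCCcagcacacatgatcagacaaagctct
CEACAM5: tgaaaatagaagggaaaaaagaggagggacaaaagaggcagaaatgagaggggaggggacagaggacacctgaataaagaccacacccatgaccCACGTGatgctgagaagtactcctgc
CEACAM6: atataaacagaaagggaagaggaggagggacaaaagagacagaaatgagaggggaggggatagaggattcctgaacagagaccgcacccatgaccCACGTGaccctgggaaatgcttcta
CEACAM7: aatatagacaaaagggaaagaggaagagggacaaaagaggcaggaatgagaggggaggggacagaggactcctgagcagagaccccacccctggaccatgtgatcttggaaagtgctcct

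Over the 250 bases before the start site, the promoters of CEACAM5 and CEACAM7 were the closest pair, with 84.4% identical bases in their alignment. CEACAM1 and CEACAM5 were the most distant pair, at 72.0%, and CEACAM5 and CEACAM6 shared 78.5%. The E-box stood at -46 to -41 in CEACAM5 and at -45 to -40 in CEACAM6. The interferon regulatory factor element was found in CEACAM1 alone of the 4, at -116 to -107. A GC box lay at -52 to -47 in CEACAM1 and at -211 to -206 in CEACAM6, outside the printed stretch. Both strands were searched over 250 bases before and 50 after the start site, no matches overlapped, and none of the 3 motifs was found in CEACAM7. Among 27305 RefSeq promoters of that length, 3.65% held the interferon regulatory factor element, 7.43% the E-box and 44.6% the GC box. These are matches of letters and not sites of binding.

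Library totals ranged from 18723942 to 34277421 counts. A floor of 3 counts corresponded to 0.0853 to 0.164 CPM, the counts scaled to the size of each library, and covers counting error only. All 8 epithelial markers stood above the floor in every library of 7 groups and 7 of 8 did so in HCT116 2D. Their summed level was 3476 to 17846 CPM. The 7 neutrophil markers, a cell type that also makes CEACAM1 and CEACAM6, summed to 0 to 2.52 CPM. The 9 other non-epithelial markers summed to 2.50 to 93.2 CPM, for the most part from CD68 except in HCT116 2D. The sums of both lists were higher in every 3D library than in any 2D library of the same line, and their part in the results was not tested. In LS513 the neutrophil markers summed to 0.483 to 0.919 CPM in 2D and 1.63 to 2.52 CPM in 3D. The other non-epithelial markers summed there to 18.5 to 21.2 CPM in 2D and 62.9 to 93.2 CPM in 3D. In bulk samples, fewer cells of a type and less RNA per cell cannot be told apart.

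The levels of CEACAM1, CEACAM5 and CEACAM6 were further apart between the 4 lines than between 2D and 3D within a line, as the plot of every library shows. CEACAM5 and CEACAM6 were high in LS513 and HT29, lower in LS174T, and at or under the floor in HCT116. CEACAM1 was high in HT29 and LS513 and low in LS174T and HCT116. CEACAM7 reached more than a few CPM in HT29 3D alone. CEACAM19 was the only member that kept a level of at least 7.30 CPM in all 24 libraries.

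**Figure D1:**
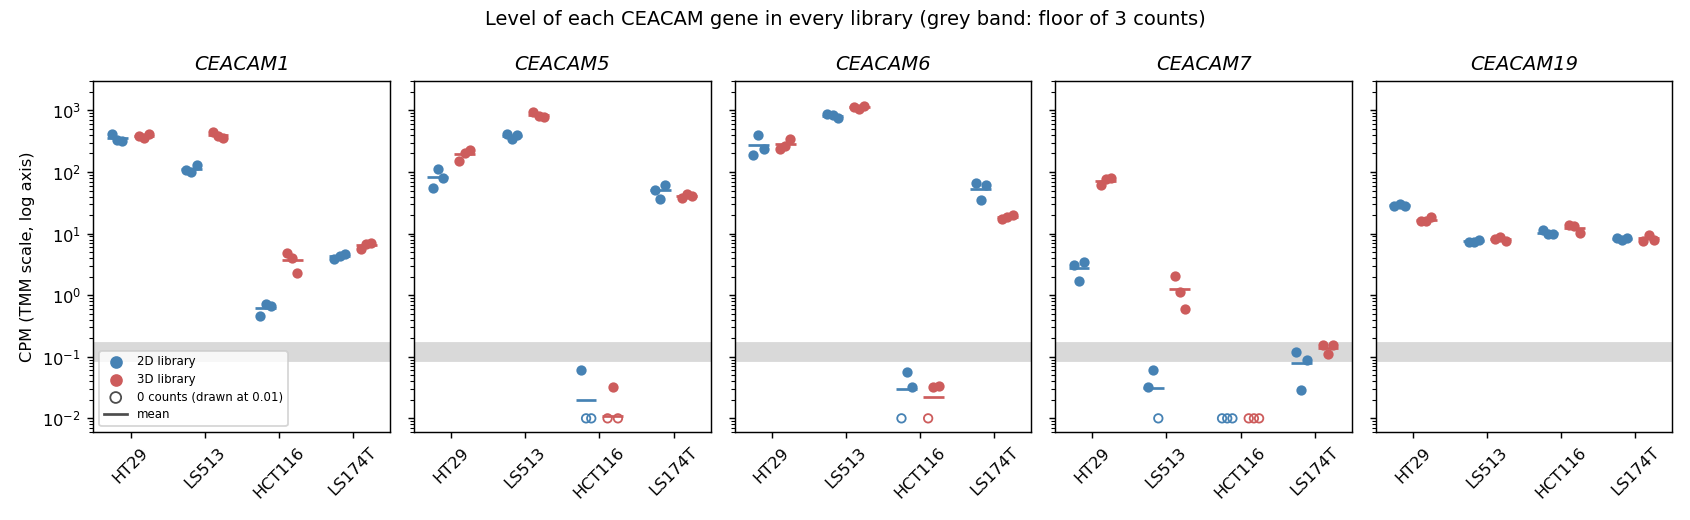
CPM on the TMM scale (log axis) of each gene in the 3 libraries of every line in 2D (blue) and 3D (red), with the mean as a line. Open circles at the bottom are libraries with 0 counts, and the grey band is the level of 3 counts. CEACAM5, CEACAM6 and CEACAM7 lie under the band in all 6 HCT116 libraries, whereas CEACAM19 lies above 7 CPM throughout.

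Growth in 3D was compared with 2D within each line. Of the 20 member and line pairs, 9 passed the test (adjusted p under 0.05), 7 with a higher and 2 with a lower level in 3D, and in 3 further pairs both groups were at or under the floor. In HT29, 3 members were called, 2 higher and 1 lower, where 40.7% of all tested genes were called, 21.1% higher and 19.6% lower. In LS513, 3 members were higher and none lower, against 23.6% of all genes called (13.7% higher and 9.9% lower). In HCT116 1 member was higher and none lower, where 29.1% of all genes were called (16.8% higher and 12.3% lower). In LS174T 1 was higher and 1 lower, where 22.2% of all genes were called (13.1% higher and 9.15% lower). The 2D and 3D libraries did not overlap for 4 members in LS513 (42.9% of all tested genes), 3 in HT29 (52.9%), 2 in LS174T (38.5%) and 1 in HCT116 (40.4%). The median log2 fold change of all tested genes was between 0.00 and 0.02 in each line. The labels do not say whether the libraries came from separate cultures, so the p-values measure the spread between these libraries, which may be technical.

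**Figure D2:**
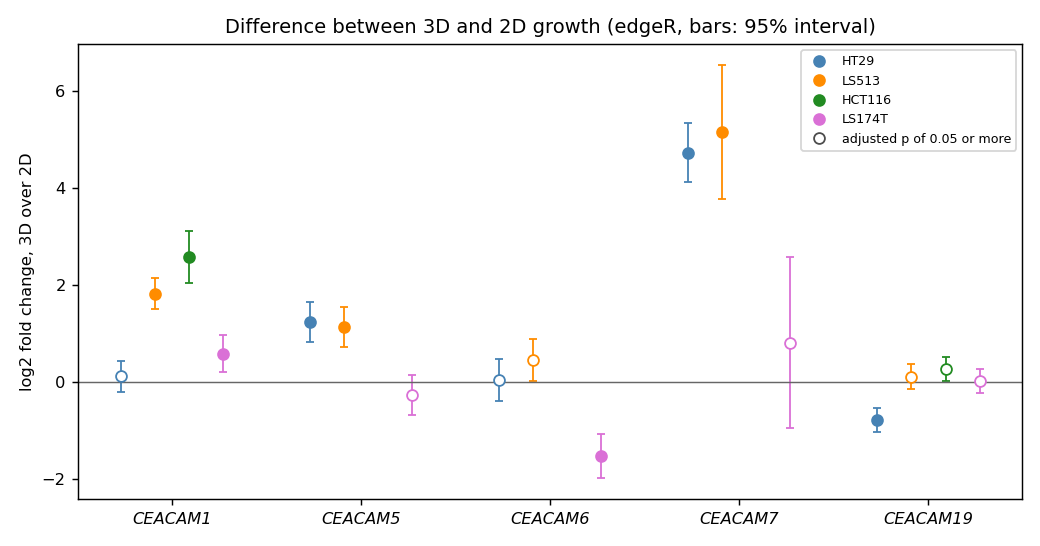
Log2 fold change of 3D over 2D for each gene in each line from edgeR, with its 95% interval. Filled points passed an adjusted p of 0.05, and HCT116 is not drawn for the 3 genes at or under the floor. CEACAM7 in HT29 and LS513 lies highest, at 4.74 and 5.16, and CEACAM6 in LS174T lowest, at -1.53.

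CEACAM1, the signalling member, rose in 3D in LS513, HCT116 and LS174T and was at the same high level in both conditions in HT29 within the error. In LS513 2D the libraries held 106, 99.6 and 129 CPM, and in LS513 3D they held 454, 381 and 351 CPM. The lowest 3D library was thus well above the highest 2D library. The rise was 3.54-fold (log2 1.82, SE 0.16, adjusted p = 1.5e-08). In HT29 2D the libraries held 409, 337 and 315 CPM and in HT29 3D 378, 358 and 412 CPM. These groups overlapped, and the log2 difference of 0.11 had a 95% interval from -0.20 to 0.43 (adjusted p = 0.59).

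In HCT116, CEACAM1 was near the limit of detection in 2D, with 15, 25 and 21 counts per library (0.453, 0.719 and 0.674 CPM). The 3D libraries held 144, 122 and 69 counts (4.79, 3.99 and 2.31 CPM), all above 2D. The log2 fold change was 2.58 (SE 0.26, adjusted p = 1.3e-07), at levels far under those of HT29 and LS513. In LS174T the 2D libraries held 3.89, 4.41 and 4.68 CPM and the 3D libraries 5.52, 6.78 and 7.13 CPM, without overlap. The LS174T rise was small (log2 0.58, SE 0.18, adjusted p = 0.028), and it lost the call without any 1 of LS174T 2D replicates 1 and 2 or 3D replicates 2 and 3, with adjusted p from 0.066 to 0.103. The antisense gene LIPE-AS1 shares 185 exonic bases with CEACAM1 on the opposite strand, and the strand setting of the counting is not given in the sources used here. LIPE-AS1 rose in all 4 lines, for example from 1.61 to 3.49 CPM in HCT116, and the shared bases are 4.40% of its exonic length.

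The lines ranked by CEACAM1 in 2D as HT29, LS513, LS174T and HCT116, each neighbour differing from the next (adjusted p from 3.0e-16 to 1.9e-09). In 3D, HT29 and LS513 no longer stood apart (log2 -0.05, adjusted p = 0.82), while LS174T remained above HCT116 by 0.81 on the log2 scale (adjusted p = 7.1e-04). The effect of 3D growth on CEACAM1 differed between the lines (adjusted p = 1.7e-06), where 17.1% of all tested genes passed that test. Between single pairs of lines, the share of all tested genes whose 3D effect differed was 12.1% for HT29 and LS513, 7.76% for HT29 and HCT116, 6.65% for HT29 and LS174T, 4.34% for LS513 and HCT116, 3.62% for LS513 and LS174T, and 4.75% for HCT116 and LS174T. The LS513 effect exceeded that of HT29 by 1.71 and that of LS174T by 1.24 on the log2 scale (adjusted p = 7.0e-06 and 0.0027). The effect in HCT116, at low counts, was also larger than in HT29 (HT29 minus HCT116 log2 -2.46, adjusted p = 6.8e-06). It was larger than in LS174T as well (HCT116 minus LS174T log2 2.00, adjusted p = 3.8e-04). LS513 and HCT116 did not differ beyond their error (adjusted p = 0.22), nor did HT29 and LS174T (adjusted p = 0.29).

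CEACAM5, which encodes CEA, rose in 3D by more than 2-fold in the 2 microsatellite stable lines and passed no test in LS174T. In HT29 the 2D libraries held 55.2, 112 and 80.0 CPM and the 3D libraries 152, 206 and 228 CPM. No HT29 library of one condition reached the range of the other, although the 2D libraries were 2-fold apart among themselves. The HT29 rise was 2.37-fold (log2 1.24, SE 0.20, adjusted p = 4.0e-05). In LS513, which had the highest CEACAM5 of the 4 lines, the libraries held 413, 343 and 399 CPM in 2D and 926, 822 and 785 CPM in 3D. The LS513 groups were likewise apart, by 2.19-fold (log2 1.13, SE 0.20, adjusted p = 1.8e-04).

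In LS174T the 2D libraries held 51.7, 37.1 and 62.1 CPM of CEACAM5 and the 3D libraries 38.5, 44.3 and 41.5 CPM. These overlapped, and the log2 difference of -0.28 had a 95% interval from -0.69 to 0.13 (adjusted p = 0.33). The 6 HCT116 libraries held 0 to 2 counts each, so no fold is given there. The 3D effect on CEACAM5 differed between the 4 lines (adjusted p = 0.0011), and that of LS174T was lower than those of HT29 and LS513 (adjusted p = 0.0014 and 0.0035). HT29 and LS513 differed by 0.11 on the log2 scale (adjusted p = 0.90). In 2D, HT29 held 0.214 times the level of LS513 and 1.64 times that of LS174T (adjusted p = 1.4e-09 and 0.0031), and in 3D the latter ratio was 4.71 (adjusted p = 1.3e-09).

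CEACAM6, by group mean the most abundant member per exonic kilobase in HT29 and LS513, fell in 3D in LS174T and passed no test in the other lines. In LS174T the 2D libraries held 66.1, 34.6 and 61.0 CPM and the 3D libraries 17.3, 18.7 and 20.0 CPM. The 2D libraries were spread widely and the 3D libraries narrowly, with no overlap. The level in 3D was 0.347 times that in 2D (log2 -1.53, SE 0.22, adjusted p = 4.6e-05). In LS513 the libraries held 862, 841 and 762 CPM in 2D and 1131, 1062 and 1170 CPM in 3D. Although these groups did not overlap, the log2 difference of 0.45 (95% interval 0.01 to 0.88) had an adjusted p of 0.13. It passed with only the 6 LS513 libraries fitted or with all genes of at least 1 count (adjusted p = 0.0039 and 0.0014).

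In HT29 the CEACAM6 libraries ranged from 189 to 395 CPM in 2D and from 235 to 348 CPM in 3D. The 3D range lay within the 2D range, and the log2 difference was 0.04 (95% interval -0.39 to 0.48, adjusted p = 0.93). The 6 HCT116 libraries again held 0 to 2 counts each. The 3D effect differed between the 4 lines (adjusted p = 3.2e-04). That of LS174T was lower than those of HT29 and LS513 by 1.57 and 1.98 on the log2 scale (adjusted p = 0.0023 and 3.2e-04), and the latter lines did not differ beyond their error (adjusted p = 0.43).

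Reads of CEACAM5 and CEACAM6 cannot be fully separated from those of AC243967.1, a gene model on the same strand. All 716 of its exonic bases lie in exons of these genes, 544 in CEACAM5 (16.2% of its exonic length) and 172 in CEACAM6 (5.64%). It nevertheless had counts, from 5470 to 5853 per library in LS513 2D and from 6741 to 8539 in LS513 3D. The study's methods say that every overlap of an alignment with an annotated exon was counted and summed by gene. They name no setting for reads on bases of 2 genes. Whether the members' counts include these reads was not tested. AC243967.1 rose in LS513 (log2 0.63, adjusted p = 0.031) and fell in LS174T (log2 -1.13, adjusted p = 0.0017).

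CEACAM5 was set against CEACAM6 within each library, in counts per exonic kilobase. In HT29 the ratio was 0.266, 0.259 and 0.306 in 2D and 0.590, 0.712 and 0.596 in 3D. In LS513 it was 0.437, 0.371 and 0.477 in 2D and 0.746, 0.705 and 0.611 in 3D. CEACAM5 thus remained below CEACAM6 in every library of both lines, but by less in 3D. In LS174T the ratio was 0.712, 0.977 and 0.927 in 2D and 2.03, 2.15 and 1.89 in 3D, so that the order of the genes turned. The mean log2 ratio was higher in 3D by 1.19 in HT29, 0.68 in LS513 and 1.23 in LS174T, with no overlap in any line. The exact permutation p was 0.1 in each line (two-sided, and 0.1 after adjustment over the 3 lines), the smallest that 3 against 3 libraries can give. In HT29 the ratio differed with a higher CEACAM5 level and in LS174T with a lower CEACAM6 level.

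**Figure D3:**
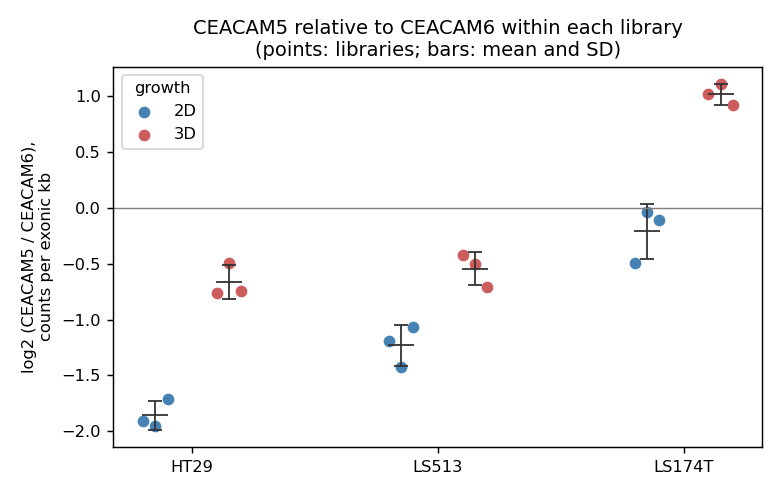
Log2 ratio of CEACAM5 to CEACAM6 in counts per exonic kilobase, in each 2D (blue) and 3D (red) library of the 3 lines with these transcripts, with mean and SD. The 3D libraries lie above the 2D libraries in each line, and only the LS174T 3D libraries lie above 0.

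CEACAM7, a GPI-anchored member known from the surface of normal colonocytes, showed the largest differences between 3D and 2D of the 5 genes. In HT29 2D the libraries held 90, 50 and 63 counts (3.09, 1.72 and 3.45 CPM), and in HT29 3D they held 2033, 2187 and 2212 counts (61.3, 75.6 and 80.2 CPM). The groups were far apart. The rise was 26.7-fold (log2 4.74, SE 0.29, adjusted p = 1.1e-09), or 2.75 ± 0.91 to 72.4 ± 9.86 CPM (SD, n = 3). In LS513 the 2D libraries held 1, 2 and 0 counts and the 3D libraries 59, 32 and 17 counts (2.08, 1.14 and 0.589 CPM). All 2D libraries were under the floor and all 3D libraries over it. The 3D mean in CPM was 13.5-fold the mean CPM that 3 counts gave in the 2D libraries. The log2 of the fit was 5.16 (SE 0.66, adjusted p = 1.4e-05). The fitted value ran from 4.60 to 5.99 when 1 library was left out, the highest without LS513 2D replicate 2, and passed each time.

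In LS174T the CEACAM7 counts were 4, 1 and 3 in 2D and 5, 3 and 5 in 3D, where a difference was not detectable at this depth (adjusted p = 0.52). All 6 HCT116 libraries held 0 counts. The test of a difference between the 4 lines did not pass (adjusted p = 0.071). With HCT116 left out, an alternative chosen after the data were seen, it passed (adjusted p = 0.044), where 13.7% of all tested genes did so. HT29 exceeded LS174T in its 3D effect (adjusted p = 0.033), LS513 did not pass against LS174T (adjusted p = 0.076), and HT29 and LS513 did not differ beyond their error (adjusted p = 0.83). No stretch of 75 bases, the read length, was shared between CEACAM7 transcripts and those of another gene.

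CEACAM19 was lower in 3D in HT29 and passed no test in the other lines. In HT29 the libraries held 28.4, 30.3 and 27.9 CPM in 2D and 15.7, 16.3 and 18.5 CPM in 3D. The fall was clear of the spread within either group (log2 -0.78, SE 0.12, adjusted p = 2.2e-05). In LS513 the levels were 7.30 to 7.79 CPM in 2D and 7.45 to 8.67 CPM in 3D, and in LS174T 7.79 to 8.50 and 7.69 to 9.44 CPM. Both pairs of ranges overlapped (adjusted p = 0.58 and 0.96). In HCT116, where CEACAM19 was the most abundant member, the libraries held 11.6, 9.86 and 9.72 CPM in 2D and 13.9, 13.4 and 10.4 CPM in 3D (log2 0.27, 95% interval 0.02 to 0.52, adjusted p = 0.093). That difference passed without HCT116 3D replicate 3 (log2 0.37, adjusted p = 0.026).

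The 3D effect on CEACAM19 differed between the lines (adjusted p = 3.1e-04), and that of HT29 was lower than each of the other three (adjusted p from 1.8e-04 to 0.0050). HT29 had the highest CEACAM19 level in both conditions, followed by HCT116. LS513 and LS174T did not differ beyond their error in 2D or in 3D (adjusted p = 0.38 and 0.81). CEACAM19 shares 121 exonic bases (2.33%) on the same strand with PVR, which encodes the poliovirus receptor CD155. PVR was much the denser gene, at 89.2 CPM per exonic kilobase in HT29 2D, where CEACAM19 stood at 5.56. How much of the CEACAM19 level and of its fall in HT29 came from reads on the shared bases was not tested. PVR also fell in HT29, from 314 ± 17.9 to 176 ± 15.3 CPM (log2 -0.84, adjusted p = 2.4e-07). It fell in LS174T as well (log2 -0.27, adjusted p = 0.035), where CEACAM19 did not pass.

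Taking the level per exonic kilobase, the make-up of the family differed between lines and with growth. By group mean, CEACAM6 led in HT29 and LS513 in both conditions and in LS174T 2D, CEACAM5 led in LS174T 3D, and CEACAM19 led in HCT116. The lead in HT29 2D did not hold in replicate 1, where CEACAM1 stood above CEACAM6 (74.0 against 62.0 CPM per kilobase). In HT29, CEACAM7 took 0.562% of the summed level in 2D and 10.9% in 3D, which moved it above CEACAM19. In LS513, CEACAM1 took 4.98% in 2D and 10.3% in 3D. In HCT116, CEACAM19 took 94.0% in 2D and 78.0% in 3D, and CEACAM1 nearly all of the rest. The sum over the 5 genes was 185 ± 39.3 in HT29 2D and 251 ± 37.3 in HT29 3D (CPM per kilobase, SD, n = 3), and 406 ± 17.9 and 693 ± 34.7 in LS513. It was 35.1 ± 8.99 and 21.3 ± 1.45 in LS174T, and 2.12 ± 0.175 and 3.09 ± 0.593 in HCT116. With the longest transcript as the length, CEACAM1 and CEACAM6 changed places in HT29 3D, and in HT29 2D their means were nearly equal, at 100.5 and 101.5.

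**Figure D4:**
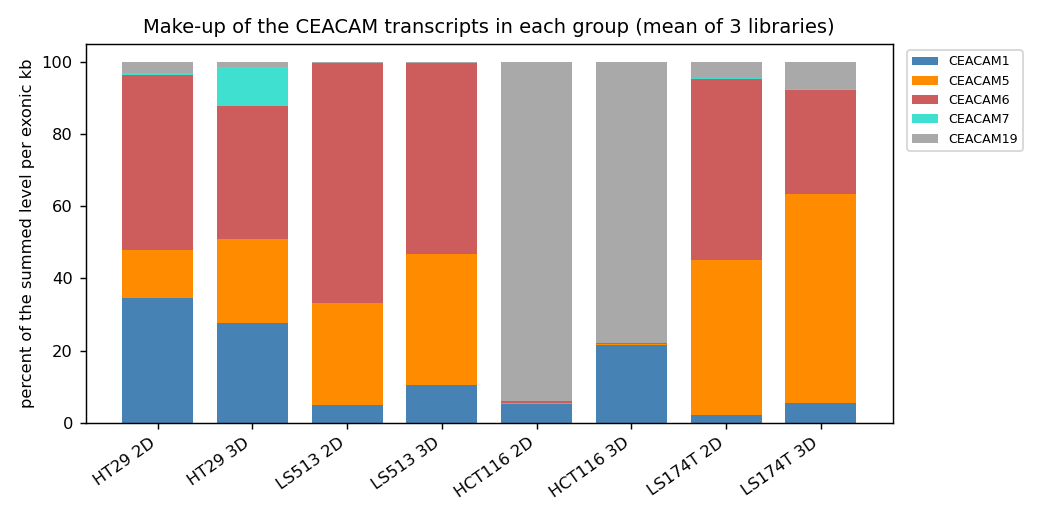
Share of each gene in the summed mean level per exonic kilobase (percent, 3 libraries per group) in the 8 groups. CEACAM5 and CEACAM6 (orange and red) make up most of LS513 and LS174T, CEACAM1 (blue) is large in HT29, CEACAM7 (turquoise) is visible in HT29 3D, and CEACAM19 (grey) fills HCT116.

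Line against line in 2D, 27 of 30 comparisons over the 5 genes passed the test, and 28 did so in 3D. In 2D, the share of all tested genes called was 68.8% for HT29 and HCT116, 68.3% for LS513 or LS174T and HCT116, 64.6% for HT29 and LS174T, 60.6% for HT29 and LS513, and 57.6% for LS513 and LS174T. In 3D it was 68.5% for HT29 or LS513 and HCT116, 67.2% for HCT116 and LS174T, 65.5% for HT29 and LS174T, 61.9% for HT29 and LS513, and 60.9% for LS513 and LS174T. The 2D exceptions were CEACAM19 between LS513 and LS174T, and CEACAM7 between LS513 and either HCT116 or LS174T, where it was at or near the floor. CEACAM7 between HCT116 and LS174T passed although it too was at or near the floor. HCT116 held 0 counts there, against 1 to 4 in LS174T 2D and 3 to 5 in LS174T 3D (adjusted p = 0.036 and 0.0096). Averaged over the 4 lines, CEACAM1 alone passed for the effect of 3D growth (log2 1.27, SE 0.10, adjusted p = 4.3e-10), against 50.5% of all tested genes. For CEACAM5, CEACAM6 and CEACAM7 that average takes in HCT116 groups at or under the floor. With HCT116 left out, an alternative chosen after the data were seen, all 5 passed, against 47.2% of all tested genes. The mean log2 effects were 0.84 for CEACAM1, 0.70 for CEACAM5, -0.35 for CEACAM6, 3.57 for CEACAM7 and -0.22 for CEACAM19. The CEACAM6 mean took in 0.04 in HT29, 0.45 in LS513 and -1.53 in LS174T. That of CEACAM19 took in -0.78 in HT29, 0.11 in LS513 and 0.02 in LS174T. CEACAM6 was called lower in LS174T alone and CEACAM19 in HT29 alone.

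Of 17 other CEACAM and pregnancy-specific glycoprotein (PSG) genes, 5 had 0 counts in all libraries and 15 never exceeded the floor in all 3 libraries of a group. CEACAM8, a granulocyte marker, and CEACAM18 were the exceptions. CEACAM18 rose in LS513 from 0.748 ± 0.193 to 2.98 ± 0.918 CPM (log2 1.99, adjusted p = 2.7e-04) and did not pass in HT29 (log2 0.15, adjusted p = 0.79). CEACAM8 rose in LS513, where it went from 0.325 ± 0.159 to 0.749 ± 0.0342 CPM with an adjusted p of 0.038. It also rose in LS174T, where it went from 0.147 ± 0.0539 to 0.649 ± 0.239 CPM (adjusted p = 0.0033). Its transcripts share 1 stretch of 75 bases with CEACAM1 and 4 with CEACAM6.

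Surface colonocyte genes are those of the mature cells in which CEACAM5, CEACAM6 and CEACAM7 are normally found, and 13 of 18 were tested. In HT29 11 rose and 1 fell, in LS513 8 rose and 1 fell, in HCT116 3 rose and 1 fell, and in LS174T 8 rose and none fell. Their median log2 fold change was 1.67, 0.92, 0.00 and 1.04 in that order, beside medians near 0 over all genes. In HCT116 a median of exactly 0 is also the value that the fit gave genes without counts there, such as CEACAM7. Over all tested genes, 21.1% were called higher and 19.6% lower in HT29, and 13.7% and 9.9% in LS513. In HCT116 these shares were 16.8% and 12.3%, and in LS174T 13.1% and 9.15%. KRT20, a keratin of differentiated intestinal epithelium, rose in all 4 lines, in LS174T from 0.817 ± 0.208 to 12.5 ± 2.77 CPM (log2 3.93) and in HCT116 from 0.646 ± 0.0372 to 2.50 ± 0.412 CPM (log2 1.95). Carbonic anhydrase CA2 rose in LS513 (log2 3.69, adjusted p = 2.1e-10), and PLAC8 was the gene that fell in HT29 (log2 -1.71), although it rose in LS513 (log2 1.09) and LS174T (log2 0.79).

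Of 20 intestinal and stimulus-dependent transcription factors, 9 rose and 5 fell in HT29, 6 and 1 in LS513, 7 and 1 in HCT116, and 6 and 2 in LS174T. The shares of all tested genes called higher and lower were 21.1% and 19.6% in HT29 and 13.7% and 9.9% in LS513. They were 16.8% and 12.3% in HCT116 and 13.1% and 9.15% in LS174T. CDX2, the intestinal homeobox factor, rose in HT29 from 1.43 ± 0.404 to 6.72 ± 1.13 CPM (log2 2.25, adjusted p = 1.8e-09), in LS174T (log2 0.79) and in LS513 (log2 0.60), and did not pass in HCT116 (log2 0.17, adjusted p = 0.31). KLF4, a factor of post-mitotic gut epithelium, rose in all 4 lines, by 1.14 to 1.46 on the log2 scale. IRF1, an interferon-induced factor of the family whose element stands in the CEACAM1 promoter, rose in HCT116 from 20.4 ± 2.41 to 38.9 ± 5.95 CPM (log2 0.93, adjusted p = 1.1e-05) and passed in no other line.

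Among partners of CEACAM1, 13 of 14 genes were tested, and 3 rose and 3 fell in HT29, 3 and 1 in LS513, 3 and 1 in HCT116, and 2 and 3 in LS174T. For comparison, the share of all tested genes called in either direction was 40.7%, 23.6%, 29.1% and 22.2% in these lines. PTPN6, which encodes SHP-1, rose in all 4 lines, by 0.66 in HCT116, 0.62 in HT29, 0.36 in LS174T and 0.26 in LS513 on the log2 scale (adjusted p = 1.0e-05, 1.4e-05, 0.0066 and 0.035). PTPN11, which encodes SHP-2, fell in HT29 (log2 -0.64, adjusted p = 0.012). FLNA, the actin cross-linker filamin A, fell in HT29 from 2712 ± 436 to 290.2 ± 41.6 CPM (log2 -3.22, adjusted p = 2.0e-11) and in LS174T (log2 -0.86). SRC rose in LS513 (log2 0.34, adjusted p = 0.0033). HAVCR2, which encodes the CEACAM1 ligand TIM-3, was too low to be tested.

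All 29 genes of GPI anchor synthesis and attachment, on which CEACAM5, CEACAM6 and CEACAM7 depend, were tested. In HT29 8 rose and 2 fell, in LS513 2 rose and 4 fell, in HCT116 5 rose and 7 fell, and in LS174T 2 rose and 2 fell, with medians from -0.06 to 0.05 on the log2 scale. PGAP3, which remodels the lipid of the anchor, rose in HT29 (log2 1.14, adjusted p = 9.5e-07). PIGW, an acyltransferase of an early step, fell in all 4 lines, by log2 values from -0.71 in LS513 to -0.57 in LS174T. DPM3, a subunit of the mannose donor synthase, rose in LS174T from 14.3 ± 1.26 to 31.8 ± 15.3 CPM, with a wide spread in 3D (log2 1.15, adjusted p = 0.0013). The lists of colonocyte genes, factors, partners and anchor genes were chosen with earlier results of these data known.

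**Figure D5:**
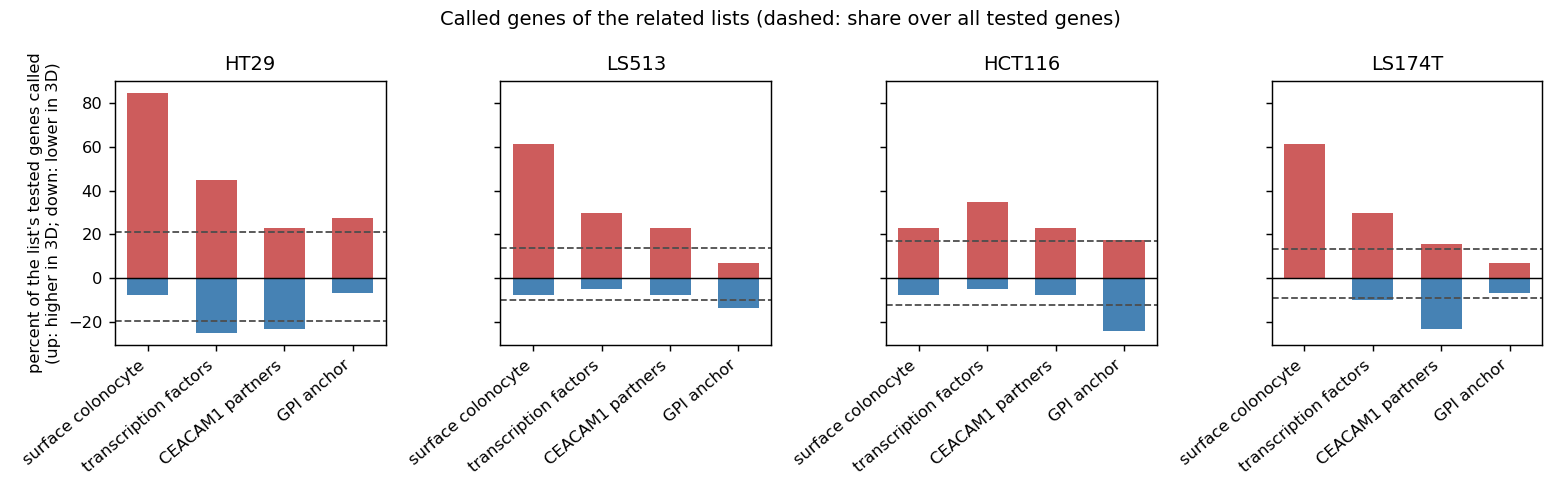
Percent of the tested genes of each related list called higher (red, upward) or lower (blue, downward) in 3D, by line, with the share over all tested genes as dashed lines. Of the 4 lists drawn, surface colonocyte genes stand furthest above the dashed line in HT29, LS513 and LS174T, and the GPI anchor list stays nearer to it.

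The genes whose levels followed each member most closely over the 24 libraries are given as a description, since libraries of a line share most of their profile. CEACAM1 was followed by the transporter ABCC3 (r = 0.985), TSPAN1 (0.982) and SH3BGRL3 (0.978). CEACAM5 was followed by AC243967.1 (0.992), ACSS1 (0.990) and TMEM8A (0.990), and CEACAM6 by AC243967.1 (0.998), HPDL (0.992) and GSAP (0.991). AC243967.1 shares its exonic bases with both. CEACAM7 was followed by AC008403.1 (0.953), SIDT2 (0.943) and PLA2G2F (0.939), and CEACAM19 by PVR (0.982), with which it overlaps, PRNP (0.948) and DHX34 (0.936). Between members, r was 0.987 for CEACAM5 and CEACAM6, 0.855 for CEACAM1 and CEACAM6, and -0.06 for CEACAM5 and CEACAM19.

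Genes next to the members were examined in the same tests. CEACAM5 and CEACAM7 are nearest neighbours, and both rose in HT29 and in LS513, whereas CEACAM6 passed in neither. Beyond CEACAM6, RPS19, a ribosomal protein gene 87710 bases away, rose in all 4 lines by 0.48 to 0.76 on the log2 scale. The largest rise, in LS174T, was from 963 ± 38.0 to 1631 ± 633 CPM, with a wide spread in 3D. On the far side of CEACAM7, DMAC2, 232590 bases away, rose in HT29 and LS174T (log2 0.38 and 0.27, adjusted p = 0.0026 and 0.045). Beside CEACAM1, the chemokine gene CXCL17 rose in HT29 from 0.704 ± 0.181 to 2.62 ± 0.765 CPM (adjusted p = 9.3e-04), where CEACAM1 did not pass. Beside CEACAM19, IGSF23 rose in LS513 (log2 2.31, adjusted p = 1.7e-04) and BCL3 in HCT116 (log2 0.86, adjusted p = 0.010), lines in which CEACAM19 did not pass.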

How the data were processed

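RNA was sequenced as single reads of 75 bases from poly(A) libraries made with a stranded kit. The authors deposited raw read counts per Ensembl gene, 1 file for each technical replicate. According to the study's methods, reads were trimmed with Trim Galore, aligned with STAR, cleared of multi-mapping alignments and counted with HTSeq-count. The submitters' processing notes give Trim Galore 0.4.1, HTSeq 0.5.3, bcl2fastq 2.18.0.12 and the build hg19, whereas the identifiers matched GENCODE 29 (GRCh38) for 57980 of 58243 genes. Discarding multi-mapping reads can lower counts where genes share sequence. No stretch of 75 bases was shared between members, whereas CEACAM1 shared 43 and CEACAM5 4 with CEACAM3.

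The 191 files were summed to 24 libraries. A file for technical replicate d of HT29 3D replicate 4 was not analysed here. Technical replicates differed no more than sampling noise (median chi-square 0.999 to 1.03 times its expectation). Libraries of a group differed by more (2.24 to 49.4 times), so no libraries were merged. LS174T 3D replicate 2 stood furthest out, at 30.1 and 49.4 times from replicates 1 and 3, which were at 6.44. Without it 2083 genes were called in LS174T, against 4305 with all libraries. Leaving out any other LS174T library gave 2616 to 6038. The main test was edgeR 4.0.16 (R 4.3.3), robust quasi-likelihood with TMM factors, 8 group coefficients and Benjamini-Hochberg adjustment over 19387 genes that passed filterByExpr. CPM are on the TMM scale. Adjusted p-values are from this test unless named otherwise. Levels per kilobase used the union of GENCODE exons. Ratios were compared by exact permutation (SciPy 1.17.1), and promoters were aligned with Biopython 1.88. The scripts were tested on simulated data.

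Alternatives were DESeq2 1.42.0 size factors and test, no filter beyond 1 count, a replicate block, technical replicate d left out, only the libraries compared and each library left out. Members and lists were chosen with earlier results of these data known. Named were all members, the gene of smallest p per list and line, IRF1, CDX2, PTPN6, PTPN11 and HAVCR2, family genes above 3 counts in a whole group, tested protein-coding neighbours and the 3 protein-coding genes (mean of at least 1 CPM) of highest Pearson r with each member. KLF4 in HT29 and HCT116, LIPE-AS1, AC243967.1 and PVR were added for their values or overlaps. A result that this rule names is not reported here.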

Additional observations from a re-analysis of the deposited data

Results flagged for a closer look

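The effect of 3D growth differed between the 4 cell lines for CEACAM1, CEACAM5, CEACAM6 and CEACAM19, by edgeR's test of the interaction of growth with line. For CEACAM7 the main test passed only with HCT116 left out. For CEACAM1 the adjusted p was 1.7e-06, with log2 fold changes of 2.58 in HCT116, 1.82 in LS513, 0.58 in LS174T and 0.11 in HT29. For CEACAM5 it was 0.0011, with 1.24 in HT29, 1.13 in LS513 and -0.28 in LS174T. For CEACAM6 it was 3.2e-04, with 0.04, 0.45 and -1.53 in the same lines. For CEACAM19 it was 3.1e-04, with -0.78 in HT29 and 0.02 to 0.27 in the others. For CEACAM7 it was 0.044 with HCT116, which had no reads, left out after the data were seen, and 0.071 over the 4 lines.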

How the results depend on the processing

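The number of members called stayed at 3 in HT29 under every alternative run. In LS513 it was 4, with CEACAM6, with all genes of at least 1 count or only the libraries compared, and 3 otherwise. In both lines it was 3 to 3 when 1 library was left out. In HCT116 it was 1 to 2 and in LS174T 1 to 2 when 1 library was left out. For the mean effect over the 4 lines it was 1 to 1 on leaving out libraries, 2 with the DESeq2 test and 5 with HCT116 left out, against 1. For the difference between lines it was 4 to 5, and for line against line in 2D 25 to 27. The called genes of the related lists (other CEACAM and PSG genes included) were 42, 28, 28 and 26 in HT29, LS513, HCT116 and LS174T. In that order they ranged over 38 to 44, 20 to 31, 17 to 30 and 20 to 32 when 1 library was left out. With only the libraries compared, LS174T had 13. Of all tested genes, 40.7%, 23.6%, 29.1% and 22.2% were called in these lines by the main test. The HCT116 counts of 17 and 18 were without HCT116 3D replicate 2 and 2D replicate 1, the LS174T count of members was 1 without any 1 of 4 libraries, and the causes were not tested. Of the single log2 fold changes, none that was called reversed. Uncalled CEACAM6 in HT29 turned to -0.10, -0.12 and -0.02 without HT29 3D replicate 4, 2D replicate 1 and 2D replicate 3 (range -0.12 to 0.44 over the libraries left out). Uncalled CEACAM19 in LS174T had a log2 fold change of -0.012 without technical replicate d, and of -0.069 and -0.018 without 3D replicate 2 and 2D replicate 2 (range -0.069 to 0.073). The test of CEACAM7 between lines passed with all genes (adjusted p = 2.6e-04), with DESeq2 (2.5e-04) and without LS513 3D replicate 1 or 3 (0.031 and 0.026), and leaving out a library gave up to 0.337. The order of members per length, by group mean, held in 7 of 8 groups with the longest transcript.

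Replicate numbers were shared between 2D and 3D in 11 pairs, whose deviations from the group means correlated between -0.146 and 0.0938, so the samples share only a number. With a replicate block, 3, 3, 1 and 2 members were called in HT29, LS513, HCT116 and LS174T, the same counts as without it, 1 for the mean effect and 5 for the difference between lines, where CEACAM7 had an adjusted p of 0.020. Over all genes the block gave 5415, 3635, 4614 and 3273 calls in these lines, against 7887, 4571, 5637 and 4305. It gave 33, 26, 22 and 21 called genes of the related lists. Contrasts between lines could not be fitted with the block, which lies within a line. Depth limits CEACAM7 in LS174T and CEACAM5, CEACAM6 and CEACAM7 in HCT116, where counts were at or near 0.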
